A study of Mus musculus with 3 samples.

Results

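Postn, Cthrc1, Tnc, Cilp, Col8a1, Ndnf, Ecrg4, Fap and Itga11 are 9 of the 32285 genes in the deposited tables. They code for secreted or cell-surface proteins, several of which are parts of the extracellular matrix or bind to it. They were chosen by their level in fibroblasts of the angiotensin II library, so their difference between the angiotensin II and the saline library is described here and supports nothing. The label "activated" held unevenly: 7 of the 9 were at least 2-fold higher under angiotensin II than under saline, Fap was 1.96-fold higher and Itga11 1.15-fold higher.

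The cells came from the adventitia, the sleeve of connective tissue around the mouse aorta. The Vehicle group received saline, the AngII group the pressor hormone angiotensin II, and the AngII_VWR group the same hormone together with voluntary running on a wheel (AngIIEX in its sample title). The layer was peeled off, digested with enzymes and profiled by 3′ droplet RNA sequencing, which counts each captured RNA molecule once as a UMI. Each group was 3 of the 9 mice in 1 library, and how those mice were combined is not given in the sources used here. Neither are strain, genotype, age, dose and duration. With 1 library per group no difference has a replicate check. The 95% intervals below (exact Poisson for levels, exact conditional for ratios, exact Clopper-Pearson for shares) cover counting error only, not differences between mice or preparations.

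Fibroblasts were the cells in which Col1a1, Col1a2, Dcn and Lum, genes of collagen I and of matrix proteoglycans, together took at least 1% of UMIs. This rule gave 6611 of 12324 kept cells in Vehicle, 6094 of 9115 in AngII and 10989 of 16125 in AngII_VWR, which makes 23694 fibroblasts of 37564 cells in all. Their median depth was 9437, 12966 and 4571 UMIs, so the AngII_VWR cells were the shallowest. Of the markers that the rule did not use, Col3a1 had a UMI in 97.5, 99.3 and 98.2% of these cells and Pdgfra, a platelet-derived growth factor receptor gene of fibroblasts, in 71.0, 76.9 and 63.3%. Ptprc, which marks leukocytes, had a UMI in 1.71, 2.61 and 2.25%. The class is a range of a score and not a type. Within 0.25 percentage points above the threshold lay 858, 198 and 680 cells, and within 0.25 points below it 616, 149 and 419. In the median fibroblast smooth muscle markers took 0.0206, 0.0125 and 0.00881% of UMIs and macrophage markers 0.0135, 0.0185 and 0.0451%. The libraries held 165977330, 141570158 and 105679209 UMIs over 15093, 10515 and 19633 barcodes. Pairs of libraries shared 30 to 51 kept barcodes.

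Fibroblasts of a healthy adventitia keep a quiet collagen matrix in repair. When a vessel is injured or its wall is stretched, some of them switch to a state in which they secrete matricellular proteins, which sit in the matrix and signal to cells through integrins more than they bear load. Periostin and tenascin-C are the textbook examples, and both are scarce in most resting adult tissues.

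Regulatory sequence just upstream of the start site is shown for the 4 genes with the largest AngII to Vehicle ratios for which RefSeq gave a start-site window, because these genes were high in the same library. The RefSeq table, of build GRCm38.p6, held windows for Postn, Tnc, Cilp, Col8a1, Ecrg4 and Itga11, 6 of the 9. Each sequence is the 250 bases before the first transcribed base, read 5′ to 3′ on the strand of the gene, and capitals mark every match on either strand to a searched motif. The windows are chr3:54360857-54361106 (plus strand) for Postn, chr4:64047016-64047265 (minus strand) for Tnc, chr16:57754738-57754987 (minus strand) for Col8a1 and chr1:43730352-43730601 (plus strand) for Ecrg4.

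Postn: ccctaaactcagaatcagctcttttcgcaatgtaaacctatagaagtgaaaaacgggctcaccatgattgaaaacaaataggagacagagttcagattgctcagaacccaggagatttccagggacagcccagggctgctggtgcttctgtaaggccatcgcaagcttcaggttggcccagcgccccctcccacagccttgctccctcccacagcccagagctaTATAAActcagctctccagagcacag

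Tnc: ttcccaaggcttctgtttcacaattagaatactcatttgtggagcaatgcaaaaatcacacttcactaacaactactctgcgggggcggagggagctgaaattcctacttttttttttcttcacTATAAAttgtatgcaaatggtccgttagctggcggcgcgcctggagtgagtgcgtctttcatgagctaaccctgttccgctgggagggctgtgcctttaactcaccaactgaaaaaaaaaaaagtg

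Col8a1: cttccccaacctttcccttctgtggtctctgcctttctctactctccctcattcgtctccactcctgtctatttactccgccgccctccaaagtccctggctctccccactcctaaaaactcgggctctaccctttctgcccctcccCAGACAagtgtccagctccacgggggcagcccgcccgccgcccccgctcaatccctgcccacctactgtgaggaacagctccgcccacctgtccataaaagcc

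Ecrg4: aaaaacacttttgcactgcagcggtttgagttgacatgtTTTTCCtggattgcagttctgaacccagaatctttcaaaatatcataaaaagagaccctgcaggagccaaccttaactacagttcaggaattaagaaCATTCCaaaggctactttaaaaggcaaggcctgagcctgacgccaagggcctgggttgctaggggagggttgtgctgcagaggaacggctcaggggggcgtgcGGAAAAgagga

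The capitals in Postn are a TATA box, TATAAA, whose first base lay 26 bases before the start. In Tnc the same letters began 126 bases before it. In Col8a1 the capitals are a SMAD half-site, CAGACA, 103 bases before the start. In Ecrg4 they are a TEAD motif, CATTCC, at 114 bases and the NFAT core GGAAAA at 11 bases on the plus strand and at 211 bases on the minus strand. Postn and Tnc each had another window, not printed here. That of Tnc, chr4:64046937-64047186, held CAGACA on the minus strand at 71 bases and TATAAA at 205 bases. That of Postn, chr3:54359017-54359266, held none of the motifs. No base was shared by motifs in any of these windows. The motifs are common letters: of 32851 windows of all genes, 12.4% held TATAAA, 17.1% CAGACA, 12.6% CATTCC and 20.4% GGAAAA. The AP-1 motif TGANTCA, in 6.75% of all windows, and the CArG box, in 1.47%, were in none of the 8 windows of these 6 genes. No single motif was in the windows of more than 2 of the 6 genes. A match describes the letters only, not a bound site.

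In fibroblasts, Tnc, Cthrc1, Col8a1, Postn, Ndnf and Ecrg4, which code for secreted proteins, were 8.01 to 35.7-fold higher in AngII than in Vehicle. Cilp was 2.71-fold higher. Fap and the collagen receptor gene Itga11 were nearest to their Vehicle levels. In AngII_VWR the levels of Postn, Tnc, Cthrc1, Col8a1, Ndnf and Ecrg4 lay between those of the other libraries. That of Cilp was within counting error of AngII, and those of Fap and Itga11 were within counting error of Vehicle. By the rule that a gene is called at 2-fold or more on log2(CPM + 1), 7 of 9 were higher in AngII than in Vehicle, against 3.03% of the 10455 genes measured, and 0 of 9 were lower, against 1.79%. That comparison chose the genes, so nothing is read from this count. The levels below are UMIs per 1000000 UMIs of all fibroblasts of a library (CPM), not divided by gene length, so they are compared between libraries and not between genes.

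Postn, on chromosome 3 (mm10, 54361109 to 54391037, plus strand), codes for periostin, a matricellular protein that binds collagen and integrins. Its level was 54.4 CPM in Vehicle fibroblasts, 525 in AngII and 277 in AngII_VWR. The AngII level was 9.64-fold that of Vehicle (95% interval 9.34 to 9.96), and AngII_VWR lay between them. With a fibroblast threshold of 3% of UMIs the log2 ratio of Postn was 4.50 in place of 3.25. Tnc, on chromosome 4 (63959785 to 64047015, minus strand), codes for tenascin-C, a large glycoprotein of embryonic and injured tissue. Its level was 2.21 CPM in Vehicle (1.88 to 2.57), 78.9 in AngII (77.0 to 80.8) and 20.8 in AngII_VWR (19.7 to 22.0). Its Vehicle level rests on 162 UMIs, and its AngII to Vehicle ratio, 35.7 (30.6 to 42.0), was the highest of the 9. Its log2 ratio, 4.64, moved with the processing, from 2.86 with a pseudocount of 10 CPM to 5.99 with 5% of the profile of other cells subtracted, so its size is less certain than its counting interval. The gene overlaps the noncoding 8030451A03Rik on the other strand, and whether the counting used strand is not given in the sources used here.

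Cthrc1, on chromosome 15 (39076932 to 39087121, plus strand), codes for a small secreted protein with a collagen-like stretch that has been used to mark scar-forming fibroblasts. Its level was 21.2 in Vehicle, 216 in AngII and 99.9 in AngII_VWR. AngII over Vehicle gave a ratio of 10.2 (9.70 to 10.8). Col8a1, on chromosome 16 (57624258 to 57754737, minus strand), codes for a chain of collagen VIII, a short network-forming collagen of vessel walls. Its level was 58.3 in Vehicle, 595 in AngII and 365 in AngII_VWR. AngII over Vehicle gave a ratio of 10.2 (9.89 to 10.5). Cilp, on chromosome 9 (65265180 to 65280605, plus strand), codes for a secreted protein first described in cartilage that binds growth factors. Its level was 75.0 in Vehicle, 203 in AngII (199.97 to 206) and 202 in AngII_VWR (198 to 205), so both angiotensin libraries were alike within counting error and above Vehicle.

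Ndnf, on chromosome 6 (65671590 to 65712326, plus strand), codes for a secreted factor known from neurons and endothelial survival. Its level was 13.4 in Vehicle, 129 in AngII and 36.3 in AngII_VWR, and the ratio of AngII to Vehicle was 9.65 (9.04 to 10.3). Ecrg4, on chromosome 1 (43730602 to 43742578, plus strand, 1500015O10Rik in GENCODE M21), codes for a secreted peptide precursor. Its level was 42.6 in Vehicle, 341 in AngII and 117 in AngII_VWR, with a ratio of 8.01 (7.72 to 8.32). Ndnf and Ecrg4 were both far nearer to Vehicle in AngII_VWR than Col8a1 was. An antisense gene, Gm29155, overlaps Ecrg4.

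Fap, on chromosome 2 (62500943 to 62574075, minus strand), codes for fibroblast activation protein, a cell-surface protease. Its level was 79.9 in Vehicle, 156 in AngII and 81.6 in AngII_VWR, so only the AngII library stood above the others. The AngII_VWR to Vehicle ratio of Fap was 1.02 (0.983 to 1.06), which includes no difference. Itga11, on chromosome 9 (62677826 to 62783982, plus strand), codes for the integrin subunit that pairs with Itgb1 into a collagen receptor. Its level was 35.6 in Vehicle, 41.0 in AngII and 34.1 in AngII_VWR, a nearly flat profile. Itga11 was 1.15-fold higher in AngII than in Vehicle (1.10 to 1.21), which is beyond counting error but far from 2-fold. With a threshold of 3% of UMIs its log2 ratio was 0.95 in place of 0.20.

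**Figure D1:**
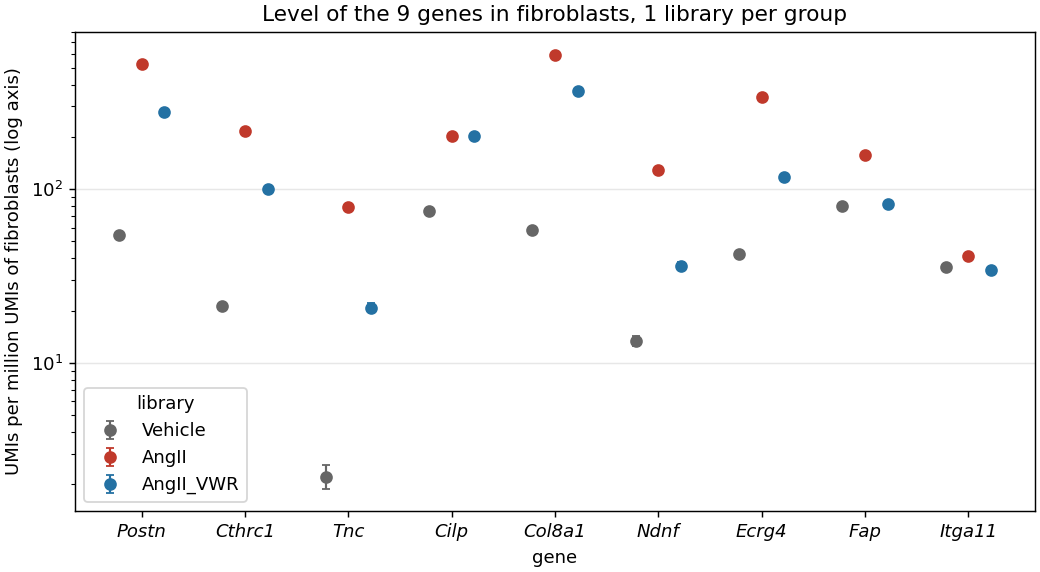
CPM in fibroblasts (log axis) for the 9 genes, 1 point per library with its exact Poisson 95% interval, which is mostly smaller than the point. AngII (red) is the highest point for all 9 genes, from 41.0 for Itga11 to 595 for Col8a1, and AngII_VWR (blue) meets it only for Cilp.

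The next comparison asks how running under angiotensin II differed from angiotensin II alone. Tnc, Ndnf, Ecrg4 and Cthrc1 were at least 2-fold lower in AngII_VWR fibroblasts than in AngII fibroblasts, Fap and Postn were 1.91 and 1.90-fold lower, and Cilp was within counting error (1.01-fold lower, 0.984 to 1.03). The AngII library enters this comparison and also chose the genes, so the count is a description. Called at least 2-fold lower were 4 of the 9, against 1.73% of 10593 genes, and 0 of 9 were at least 2-fold higher, against 1.92%. The log2 ratio was -1.87 for Tnc, -1.80 for Ndnf, -1.54 for Ecrg4, -1.11 for Cthrc1, -0.93 for Fap, -0.92 for Postn, -0.70 for Col8a1, -0.26 for Itga11 and -0.01 for Cilp. The median of the 9 was -0.93 and that of all measured genes was 0.10. Over the whole class Tnc was 3.79-fold lower (3.57 to 4.04) and Ndnf 3.56-fold (3.39 to 3.73). Ecrg4 was 2.92-fold lower (2.84 to 3.00) and Cthrc1 2.17-fold (2.10 to 2.23). All 4 differences were smaller in fibroblasts just above the threshold, with 1 to 2% of UMIs on the 4 fibroblast genes (values below). The call of Cthrc1 was lost in 2 of 13 settings, with log2 ratios of -0.98 at a fibroblast threshold of 3% of UMIs and -0.92 with the mean of per-cell values. Measured against Vehicle, AngII_VWR had 7 of the 9 at least 2-fold higher, against 3.8% of 10628 genes. Their ratios ran from 2.69 for Cilp to 9.42 for Tnc, and 0 were at least 2-fold lower, against 2.31%. The genes were chosen as high under angiotensin II, which AngII_VWR also received, so this count is a description too.

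Other values moved between the same libraries. Within the fibroblast class the 10 macrophage markers summed to 257, 210 and 545 CPM in Vehicle, AngII and AngII_VWR. All 10 were higher in AngII_VWR than in AngII, 8 of them by at least 2-fold, and none was at 0. The 6 adipocyte markers summed to 30.6, 76.7 and 105 CPM, with 2 of 3 measured at least 2-fold higher in AngII than in Vehicle, and the 6 pericyte markers to 266, 290 and 416. Pecam1, an endothelial marker, stood at 10.4, 7.75 and 35.2, and the 4 haemoglobin genes and Alas2 summed to 1496, 580 and 180. The 8 smooth muscle markers summed to 367, 269 and 298, and Myh11, the most specific of them, stood at 9.73, 1.02 and 2.77. Without the cells in which markers of another type took 1% of UMIs or more, the median of the 9 was -0.93 for AngII_VWR over AngII and 3.16 for AngII over Vehicle, against 3.18 with them. Macrophage markers reached 1% of UMIs in 25, 4 and 29 fibroblasts, so few cells were taken out for them. Lower amounts of RNA of other cell types stayed in the remaining fibroblasts, and the part of that RNA was not tested. Depth and the Cell Ranger version also differed with AngII_VWR, and their part in the result was not tested.

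Cells outside the fibroblast class were of several kinds. Over the 5713, 3021 and 5136 other cells, 7 of the 9 genes were measured in AngII over Vehicle. Of these 0 were at least 2-fold higher, against 4.49% of 11363 genes, and 3 were at least 2-fold lower, against 10.3%. The 3 were Tnc (log2 ratio -2.50), Postn (-1.82) and Itga11 (-1.42). The other cells also held the 1725, 410 and 983 cells just under the fibroblast threshold, at 0.25 to 1% of UMIs. These cells went the way of fibroblasts only in part. Postn stood at 52.2 CPM in Vehicle and 449 in AngII, and Col8a1 at 96.5 and 276. Cthrc1 (5.47 and 28.8), Tnc (7.14 and 45.7) and Fap (92.5 and 135) were also higher in AngII. Ndnf (7.25 and 12.7) and Ecrg4 (7.03 and 11.3) were higher by less than in fibroblasts. Cilp was nearly level (37.7 and 39.1), and Itga11 was lower in AngII (57.6 and 42.9). The mix of the other cells differed too: smooth muscle-marked cells, in which smooth muscle markers took at least 1% of UMIs, numbered 540 in Vehicle, 15 in AngII and 41 in AngII_VWR. In AngII_VWR over AngII 2 of the 9, Cilp and Cthrc1, were at least 2-fold higher in other cells, against 3.82% of 11133 genes, and 0 were lower, against 1.77%. In AngII_VWR over Vehicle the same pair was at least 2-fold higher in other cells, against 3.73% of 11420 genes, and Postn and Tnc were at least 2-fold lower, against 6.37%. In AngII_VWR, cells just under the threshold held 290 of the 473 Cilp UMIs of other cells and 167 of the 323 Cthrc1 UMIs. The 9 fibroblast markers summed to 1841 CPM in other cells of AngII and 4701 in those of AngII_VWR. In macrophage-marked cells they summed to 914 and 2365. The part of stray fibroblast RNA in the result was not tested.

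Smooth muscle-marked cells carried Postn and Tnc in every library. Their Postn level was 798 CPM in Vehicle, 420 in AngII (352 to 497) and 586 in AngII_VWR (512 to 668). A Postn UMI was in 509 of 540, 13 of 15 and 36 of 41 of these cells. Vehicle smooth muscle thus stood above the Postn level of fibroblasts in all 3 libraries, and the AngII and AngII_VWR values rest on few cells. Tnc stood at 195 in Vehicle, 121 in AngII (86.2 to 166) and 193 in AngII_VWR (151 to 242) in these cells, far above its 2.21 in Vehicle fibroblasts. In the Vehicle library as a whole 65.1% of Postn UMIs came from smooth muscle-marked cells and 28.8% from fibroblasts, and for Tnc the shares were 86.9 and 6.38%. In AngII fibroblasts gave 95.9% of Postn and 96.4% of Tnc UMIs. In AngII_VWR they gave 90.3 and 86.8%. Summed over a whole library, the levels of these 2 genes therefore combine the number of smooth muscle cells with the level per fibroblast. The other 7 genes took 70.6 to 99.3% of their UMIs from fibroblasts in every library.

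Macrophage-marked cells, 2541, 2045 and 3292 of them, were set beside the fibroblasts as a measure of stray RNA in the droplets. None of the 9 genes passed 10.6 CPM there, the value of Postn in AngII_VWR. Ndnf in Vehicle did not have the even spread of stray RNA: its 182 UMIs lay in 56 macrophage-marked cells and made up 13.1% of the Ndnf UMIs of that library, while 107 Postn UMIs lay in 101 cells. Col8a1 in smooth muscle-marked cells was 7.68 in Vehicle, 49.7 in AngII (28.4 to 80.8) and 102 in AngII_VWR (72.2 to 139), on 87, 16 and 39 UMIs. Among 20 endothelial-marked cells of Vehicle, 5 cells held 153 Ecrg4 UMIs.

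**Figure D2:**
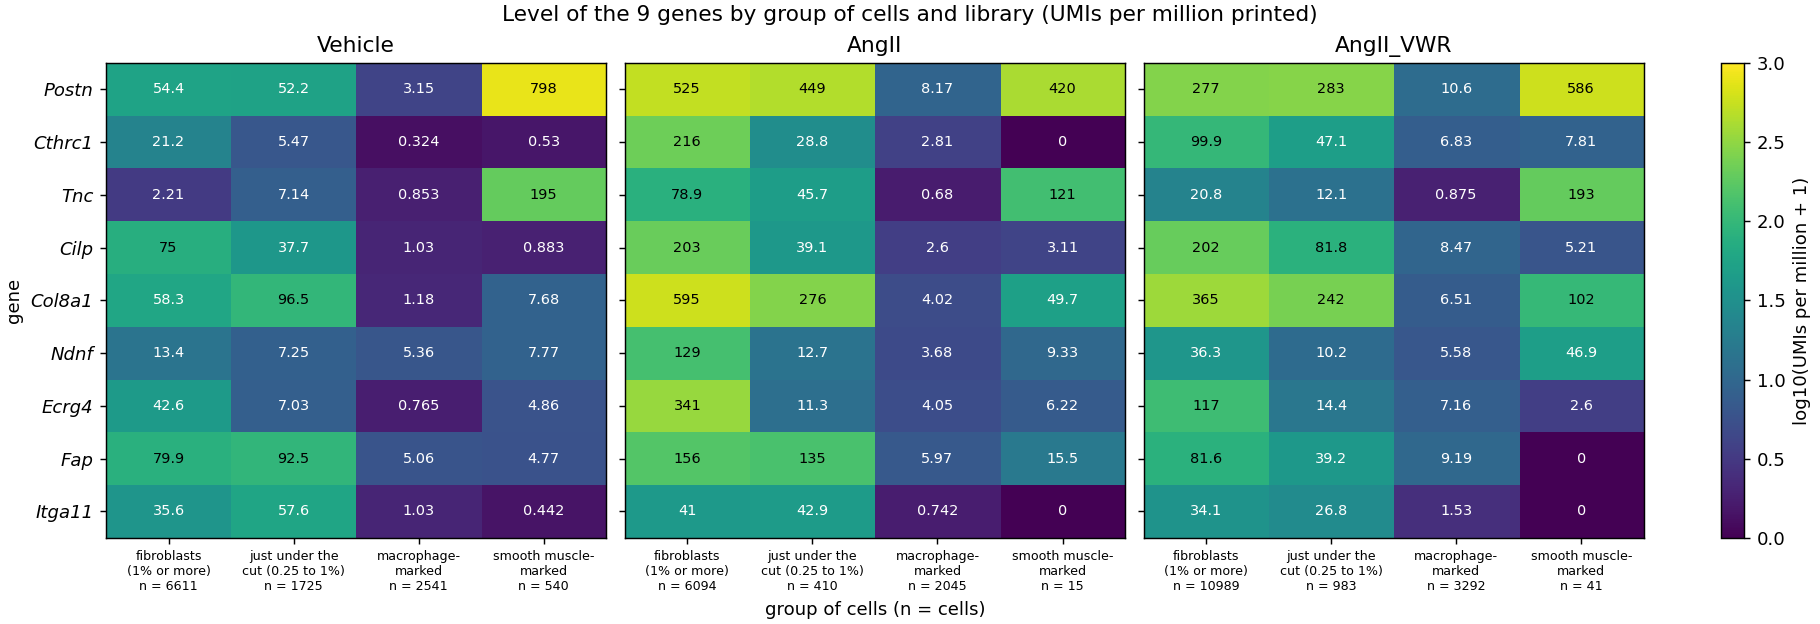
Level of the 9 genes in 4 groups of cells (columns, n in cells) of the 3 libraries (panels), coloured by log10(CPM + 1) with the level printed. Postn and Tnc are high in the smooth muscle-marked column of each library, 798 and 195 in Vehicle, while the macrophage-marked column stays at 10.6 or below.

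Levels differed along the fibroblast score. In AngII, Ecrg4 stood at 47.5 CPM in cells with 1 to 2% of UMIs on the 4 fibroblast genes, 163 at 2 to 3%, 402 at 3 to 5% and 562 at 5% and over. Ndnf went from 22.1 to 189 over the same bands, Tnc from 13.7 to 118 and Cthrc1 from 88.8 to 409. Col8a1 and Cilp were highest in the band from 3 to 5%, at 751 and 241. In Vehicle the order differed by gene: Ecrg4 went from 21.8 to 79.6, while Postn went from 65.1 in the lowest band to 12.3 in the highest. Fap and Itga11 differed less between bands of AngII, from 114 to 178 and from 36.5 to 45.6. The band from 1 to 2% held 1152 AngII and 3705 AngII_VWR cells. In it Tnc stood at 13.7 CPM in AngII and 10.8 in AngII_VWR, and Ndnf at 22.1 and 15.9. Ecrg4 stood at 47.5 and 35.1 there, and Cthrc1 at 88.8 and 70.8. At 5% and over the same 4 genes stood at 118 and 31.0, 189 and 66.9, 562 and 279, and 409 and 205. The part of the mix of bands in the whole-class ratios was not tested. The score holds Col1a1 and Col1a2, which were higher in AngII too, so bands of one value need not hold the same cells in different libraries. At the threshold itself, AngII cells within 0.25 points above had 346 CPM of Postn and 82.3 of Cthrc1, and those within 0.25 points below had 415 and 47.1.

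How many fibroblasts carried each gene was counted after thinning every cell to 2000 UMIs at random, so that depth was equal. This left 5587, 5610 and 8789 cells and dropped 1024, 484 and 2200 shallower ones. Most fibroblasts had no UMI of any one gene at this depth. The share with a Col8a1 UMI was 5.64% in Vehicle (5.05 to 6.28), 35.8% in AngII (34.6 to 37.1) and 31.7% in AngII_VWR (30.7 to 32.7), and with an Ecrg4 UMI 7.25, 30.3 and 17.2%. The share was 4.67, 26.1 and 17.3% for Postn, 2.70, 18.8 and 12.9% for Cthrc1, and 6.39, 15.2 and 14.7% for Cilp. AngII was the highest library for the first 4 of these genes, and for Cilp its interval (14.3 to 16.2) overlapped that of AngII_VWR (13.9 to 15.4).

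For Ndnf the share was 2.24, 12.9 and 5.55%, and for Fap 13.0, 21.1 and 13.5%. Itga11 was carried by 5.98, 6.43 and 6.54% of cells, with overlapping intervals in all 3 libraries (5.37 to 6.63, 5.81 to 7.11 and 6.03 to 7.08). Tnc had the lowest shares, 0.304% in Vehicle (0.177 to 0.487), 4.92% in AngII (4.37 to 5.52) and 2.29% in AngII_VWR (1.98 to 2.62). In macrophage-marked cells, set beside them as a measure of stray RNA and with median depths of 13146, 15223 and 5007 UMIs, the thinned shares ran from 0.0417 to 0.709% in Vehicle, from 0.149 to 2.13% in AngII and from 0.244 to 2.34% in AngII_VWR. The Vehicle share of Tnc in fibroblasts was no higher than the 0.333% in macrophages at this depth, and its interval overlapped theirs (0.144 to 0.656). The level without thinning was 2.21 CPM in those fibroblasts and 0.853 in the macrophages (0.572 to 1.23), so the share at this depth and the level give different pictures of Tnc in Vehicle.

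Without thinning the share in Vehicle, AngII and AngII_VWR was 11.6, 45.3 and 24.9% for Postn, 13.5, 55.9 and 41.2% for Col8a1, 9.98, 44.3 and 23.0% for Cthrc1 and 21.7, 58.1 and 26.6% for Ecrg4. It was 7.38, 32.3 and 9.68% for Ndnf, 1.39, 13.0 and 4.21% for Tnc, 13.1, 29.0 and 19.8% for Cilp, 39.2, 58.3 and 27.0% for Fap and 23.1, 30.9 and 14.7% for Itga11. The Fap and Itga11 shares of AngII_VWR, lowest without thinning, were not lowest at equal depth. The amount per positive thinned cell also differed: Col8a1 averaged 1.71, 2.87 and 2.35 UMIs, Postn 1.68, 2.69 and 2.22, and Cilp 2.04, 2.50 and 2.72. Fap averaged 1.18, 1.29 and 1.16. The higher level of Col8a1 and Postn in AngII thus went with both more positive cells and more UMIs in each.

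**Figure D3:**
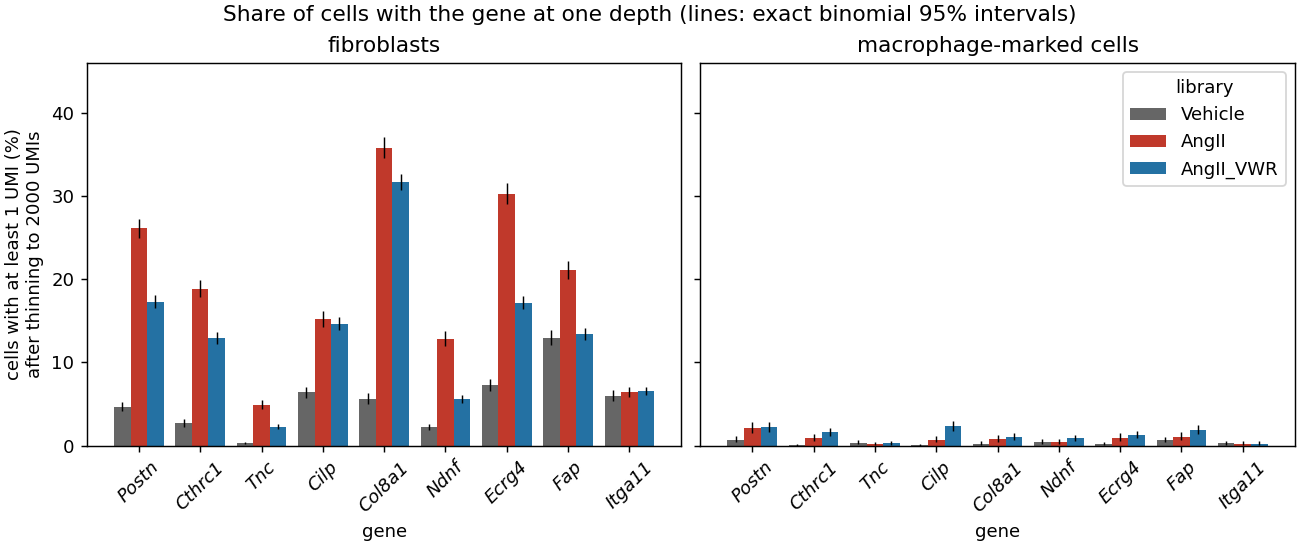
Percent of fibroblasts (left) and of macrophage-marked cells (right) with at least 1 UMI of each gene after thinning to 2000 UMIs, with exact binomial 95% intervals, for Vehicle (grey), AngII (red) and AngII_VWR (blue). Col8a1 reaches 35.8% of AngII fibroblasts, and no gene passes 2.34% in macrophage-marked cells.

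Cells with 3 or more of the 9 genes were more frequent in each library than the separate shares predict. The genes were chosen as high in AngII fibroblasts, and Ecrg4, Ndnf, Tnc and Cthrc1 rose together along the fibroblast score there. The part of this shared rise in the excess was not tested. No other set of genes was counted in this way, so the excess is a description. At 2000 UMIs per cell, 24.2% of AngII fibroblasts had none of the 9, where independent genes of the same shares would leave 13.9%. Cells with 3 or more made up 1.72% of Vehicle fibroblasts (1.39 to 2.09), 27.1% of AngII (25.9 to 28.3) and 15.0% of AngII_VWR (14.2 to 15.7), against 0.892, 23.3 and 10.4% if independent. Cells with 5 or more made up 0.0716, 5.33 and 1.35%, against 0.00278, 1.26 and 0.245%. In AngII 299 cells had 5 or more and 5 cells had 8. Among macrophage-marked cells 0 of 2399, 2018 and 2869 had 3 or more, which allows up to 0.154, 0.183 and 0.128%. Independent genes of the shares there would give 0.000243, 0.00344 and 0.0161%, so these counts say nothing on co-detection in macrophages.

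**Figure D4:**
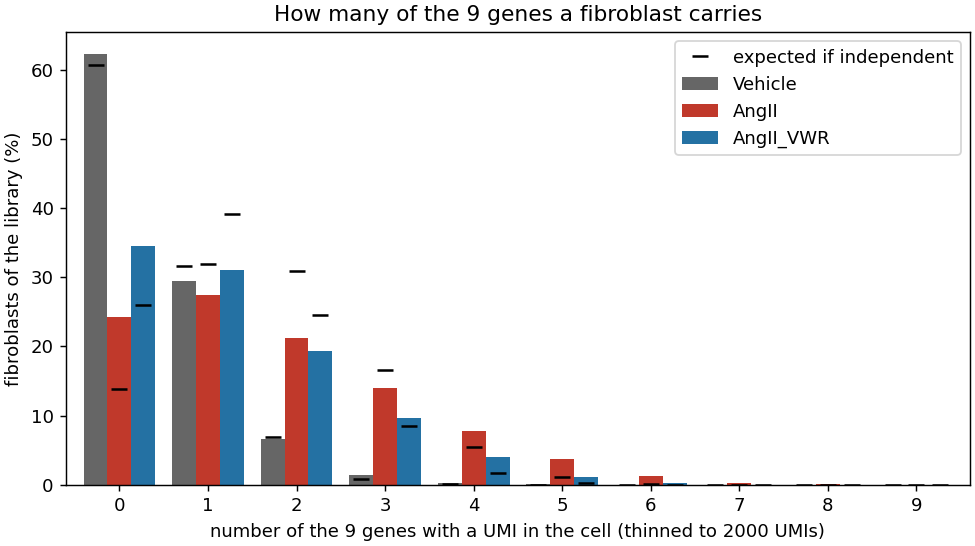
Percent of fibroblasts by the number of the 9 genes with a UMI after thinning to 2000 UMIs, for Vehicle (grey), AngII (red) and AngII_VWR (blue). Black dashes give the percent expected if the genes were independent: AngII has 24.2% of cells at 0 against 13.9% expected, and 5.33% at 5 or more against 1.26%.

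Pairs of genes differed in how far they shared cells. In AngII all 36 pairs were seen together more often than expected from their shares, with a median ratio of observed to expected cells of 1.35. Tnc and Ndnf shared 99 cells where 35.5 were expected, a ratio of 2.79 and the highest in that library. Of the AngII cells with Tnc, 73.2% also had Col8a1, 59.8% had Ecrg4 and 35.9% had Ndnf. Col8a1 and Ndnf had a ratio of 1.83 (474 cells against 258), Cilp and Ndnf 1.66, and Cilp and Col8a1 1.65. Postn went with Cthrc1 (1.60) more than with Col8a1 (1.10) or Ecrg4 (1.13). The highest ratio of Fap was with Tnc (1.61, 94 cells against 58.3). That of Itga11 was also with Tnc (1.58), but on 28 cells against 17.8. It was close to the ratio of Itga11 with Ndnf (1.51, 70 cells against 46.4). The lowest ratios were those of Cthrc1 with Fap and with Itga11, both 1.07. In AngII_VWR the highest ratio of Itga11 was with Ndnf (1.79), and that with Tnc was 1.29. Fap had nearly equal ratios with Tnc and Ndnf there, its highest.

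In AngII_VWR 34 of 36 pairs were above 1, with a median of 1.39. Tnc with Ndnf again had the highest ratio, 2.51, on 28 cells against 11.2. Ndnf with Ecrg4 stood at 2.13 and Ndnf with Cilp at 2.08, and the pairs below 1 were Postn with Ndnf (0.947) and Postn with Ecrg4 (0.952). In Vehicle, where few cells carried any member, 24 of 36 pairs were above 1, with a median of 1.23. Among pairs with at least 5 expected cells Cilp and Col8a1 stood highest, sharing 72 cells where 20.1 were expected, a ratio of 3.58. Col8a1 with Ndnf stood at 2.98, on 21 cells against 7.05, and Ndnf with Ecrg4 at 2.65, on 24 cells against 9.06. Ecrg4 and Itga11 were apart, with 11 cells against 24.2. The pairs of Tnc in Vehicle rest on at most 3 cells each.

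**Figure D5:**
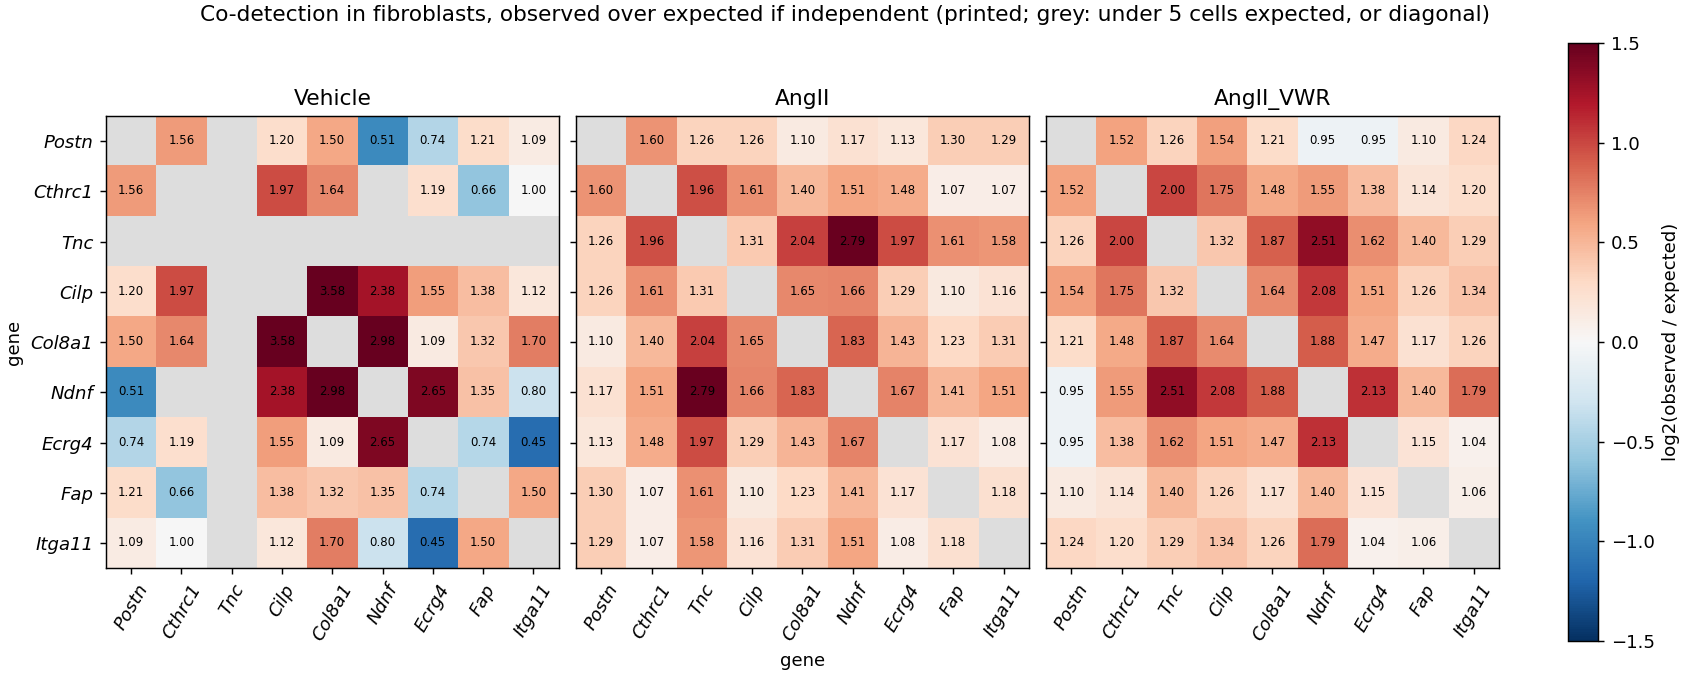
Observed over expected number of fibroblasts with both genes (printed, colour on log2) in Vehicle, AngII and AngII_VWR, with pairs under 5 expected cells in grey. The Tnc and Ndnf pair is the highest in AngII (2.79) and AngII_VWR (2.51), and Cilp with Col8a1 the highest of the coloured pairs in Vehicle (3.58).

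The genes whose levels were most like the number of the 9 carried per cell were found over the 5610 AngII fibroblasts with at least 2000 UMIs. The number of the 9 was counted after thinning, and gene levels were the log of UMIs per 10000 without thinning. These correlations are across cells of 1 library, share its depth and are descriptions. The ion channel gene Kcnma1 came first (Pearson r = 0.487), followed by Angptl1 (0.468), Itm2a (0.463), the small proteoglycan gene Aspn (0.449) and the mechanosensitive channel gene Piezo2 (0.428). Igf1, a growth factor gene, had 0.414, the Wnt inhibitor gene Sfrp1 0.375, Runx1 and Fxyd6 0.364 each, and Ltbp2, whose product sits on microfibrils, 0.359. In AngII_VWR the r of these 10 ran from 0.228 for Ltbp2 to 0.424 for Sfrp1, and in Vehicle from 0.0545 for Kcnma1 to 0.213 for Sfrp1. Kcnma1 itself stood at 11.4, 320.3 and 134 CPM in the fibroblasts of Vehicle, AngII and AngII_VWR.

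Single members had different nearest genes in AngII. Postn was most like Fn1 (r = 0.549), the gene of fibronectin, which periostin binds, and Fstl1 (0.446). Fn1 was also the nearest gene of Postn in AngII_VWR (0.449) and in Vehicle (0.238). Tnc was most like Tagln (0.348), a gene of contractile cells, and Kcnma1 (0.344). Its nearest gene was another one in AngII_VWR, Thbs1 (0.170), and in Vehicle, Mtss1 (0.132). In AngII, Col8a1 was most like Kcnma1 (0.545) and Piezo2 (0.509), and Ndnf most like Col8a1 (0.463) and Kcnma1 (0.451). Ecrg4 was nearest to Kcnma1 (0.435) and Comp (0.404), Cthrc1 to Aspn (0.407) and Angptl1 (0.402), and Cilp to Angptl1 (0.399) and Sfrp1 (0.385). Fap had only weak likeness, with Setbp1 (0.285) and Cdk14 (0.269) first, and both lay below its r of 0.296 with the log of UMIs per cell. Likeness was weak for Itga11 too, with Plce1 (0.240) and Fndc1 (0.226). The r with the log of UMIs per cell ran from 0.124 for Cilp to 0.397 for Postn.

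Fibroblasts with 3 or more of the 9 were set beside those with none of the same library, 1519 against 1359 cells in AngII, with the 9 left out. Of 19 measured matricellular and related matrix genes 8 were at least 2-fold higher in the cells with 3 or more, against 2.11% of 10471 genes. Thbs4, a thrombospondin gene, stood at 270.2 against 13.0 CPM, Aspn at 1080 against 303, Thbs1 at 179 against 49.4 and Comp at 1895 against 873. Lox, the gene of the collagen crosslinker lysyl oxidase, stood at 590 against 231, and Col11a1 at 50.8 against 5.87. Among 12 genes of progenitor-like fibroblasts 0 were at least 2-fold higher and 4 were lower (2.22% of all genes), such as Cd55 at 64.2 against 219. The cells with 3 or more had a median of 17533 UMIs before thinning and those with none 10625, and other markers differed with the split as well. In AngII 3 of 4 measured erythroid markers and 2 of 4 measured adipocyte markers were at least 2-fold lower in the cells with 3 or more, such as Hba-a1 at 60.6 against 124 and Adipoq at 1.03 against 6.39. In Vehicle all 5 erythroid markers were at least 2-fold lower, with Hba-a1 at 21.7 against 287, and in AngII_VWR 3 of 4 were. The part of depth and of these markers in the result was not tested. All gene lists were chosen with earlier results of these data known, so the counts are descriptions.

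The same genes were read in the other libraries. Aspn stood at 1101 against 304 in AngII_VWR and at 971 against 359 in Vehicle, and Ltbp2 at 149 against 45.2 and at 47.0 against 12.9. Tagln stood at 137 against 28.5 in AngII, at 62.5 against 57.7 in AngII_VWR and at 57.8 against 79.3 in Vehicle, and the difference between libraries was not tested. Acta2, the classic myofibroblast gene, stood at 97.6 against 69.0 in AngII, at 83.7 against 120 in AngII_VWR and at 83.8 against 129 in Vehicle. Of 20 matricellular genes 5 were at least 2-fold higher in AngII_VWR (1.5% of all genes) and 1 lower (1.37%), and of 19 in Vehicle 7 were higher (2.36%). Of the 12 genes of progenitor-like fibroblasts 0 were at least 2-fold lower in AngII_VWR (1.37%), with a median log2 ratio of -0.30. In Vehicle 3 of the 12 were lower (2%), with a median of -0.26, against a median of -0.79 in AngII. These values compare 1315 with 3038 cells in AngII_VWR and 96 with 3479 in Vehicle.

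The counts that follow are read against the shares of all measured genes: for AngII over Vehicle 3.03% passed 2-fold upward and 1.79% downward, and for AngII_VWR over AngII 1.92% upward and 1.73% downward. The gene lists were chosen with earlier results of these data known, so these counts are descriptions. Close relatives of the 9 split. Tgfbi, the relative of Postn, stood at 965 CPM in Vehicle fibroblasts, 602 in AngII and 452 in AngII_VWR, and Tnxb, a tenascin gene of loose connective tissue, at 912, 564 and 466. Dpp4, the nearest relative of Fap and a marker of progenitor-like fibroblasts, stood at 67.1, 23.4 and 15.8. These 3 were highest in Vehicle and lowest in AngII_VWR. Col8a2, the partner chain of Col8a1, stood at 14.0, 27.3 and 23.0, and the collagen receptor genes Itga1 and Itga2 at 36.1, 65.5 and 73.3 and at 23.9, 24.1 and 18.1. Of 6 measured relatives 0 were at least 2-fold higher in AngII than in Vehicle and 1, Dpp4, was lower. None of the 6 passed 2-fold in AngII_VWR over AngII. With 6 genes, a count of 0 is near these shares. Fap and Dpp4 shared 58, 40 and 20 thinned cells, 1.18, 1.16 and 0.833 times the number expected.

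Receptors for these proteins differed less. Of 11 measured genes 1 was at least 2-fold higher in AngII than in Vehicle, Fzd6 at 12.8 against 1.93, and the median log2 ratio was 0.32 against -0.07 for all genes. Itgav and Itgb5, subunits of integrins that bind periostin, stood at 118 against 88.3 and at 249 against 199. Itgb1, the partner of Itga11, stood at 308 against 290. Ror2, a Wnt receptor gene, stood at 57.9 against 28.6, and Egfr at 508 against 314. The ratio of Ror2 was 2.03 without the pseudocount and its log2 ratio with it was 0.99, just under the call. In AngII_VWR over AngII 0 of 11 passed 2-fold, with a median of -0.10.

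Other matrix genes went the way of the 9 in part. Of 8 measured fibrillar collagen genes 4 were at least 2-fold higher in AngII than in Vehicle, with a median log2 ratio of 0.98: Col1a1 stood at 9933 against 4530.5 and Col3a1 at 8992 against 4108. In AngII_VWR over AngII 0 of 8 passed 2-fold, with a median of -0.48. Of 12 collagen-modifying genes 3 were at least 2-fold higher in AngII, Lox (402 against 167), Plod2 (197 against 87.2) and P4ha3, and 0 of 12 differed by 2-fold in AngII_VWR over AngII. Of 19 measured matricellular genes 6 were at least 2-fold higher in AngII, among them Thbs4 (106 against 1.12), Comp (1343 against 278), Ccn3 and Thbs1. In AngII_VWR over AngII 3 of 20 were at least 2-fold lower, Thbs4 (17.3 against 106), Mfap4 (563 against 1462) and Comp (658 against 1343), and 1 was higher, Spp1 (26.1 against 1.06), a gene that macrophages also express.

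Genes of contraction did not go with the 9 in the class as a whole. Of 11 measured 0 were at least 2-fold higher in AngII than in Vehicle and 2 were lower, Cnn1 and Myh11, which smooth muscle cells express, and Acta2 stood at 76.5 against 145. Of 15 genes of transforming growth factor beta signalling and response 2 were at least 2-fold higher, Ltbp2 (128 against 18.0) and Tgfb3 (139 against 59.5), with a median log2 ratio of 0.24. Genes of progenitor-like fibroblasts were lower in AngII, 11 of 12 by at least 2-fold with a median of -1.22, such as Sema3c (151 against 442) and Cd55 (155 against 445). In AngII_VWR over AngII 0 of those 12 passed 2-fold, with a median of -0.09. Genes that tissue digestion can induce showed a median ratio of 0.01 for AngII over Vehicle, 0 of 16 past 2-fold, and of -0.32 for AngII_VWR over AngII, with 3 of 16 at least 2-fold lower, among them Socs3 (125 against 726). In AngII_VWR over Vehicle 5 of the 16 were at least 2-fold lower, against 2.31% of all genes, with a median of -0.60.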

How the data were processed

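The deposited matrices hold raw counts of UMIs for each gene in each barcode. The authors made the counts with Cell Ranger, version 7.0.1 in the Vehicle and AngII libraries and version 7.1.0 in the AngII_VWR library, per the file headers. The build was mm10 per the submitters' processing notes, and whether intronic reads were counted is not given in the sources used here.

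A barcode was kept from 300 genes and 500 UMIs upward if mitochondrial genes took no more than 10% of its UMIs (13861, 9899 and 19019). Scrublet in scanpy 1.11.5 scored doublets, and the top scores were removed at 0.8% per 1000 cells (1537, 784 and 2894 barcodes, where its own threshold marked 282, 160 and 0). UMIs were summed per cell class and library, and ratios are log2(CPM + 1), where CPM is UMIs per 1000000 UMIs. A gene was measured with at least 5 CPM in either library and at least 10 UMIs over both, and called at 2-fold. Other cell types were marked by their genes at 1% of UMIs (0.5% for endothelial, lymphocyte and Schwann cells). Co-detection used cells thinned to 2000 UMIs (seed 1). No test across samples was possible with 1 library per group. The calculations were tested on simulated data and used Python 3.11.15, numpy 2.4.6, scipy 1.17.1 and pandas 2.3.3.

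The 9 genes and all gene lists were chosen with earlier results of these data known. Named in the text were all 9 genes, up to 4 genes per list with the largest ratio and at least 50 CPM, relatives at 5 or more, the 10 genes most like the number of the 9 per cell and the 2 most like each. Genes outside this rule (Fzd6, Itgb1, P4ha3, Col11a1, Spp1, Cnn1, Myh11, Hba-a1, Adipoq, the partners of cells with 3 or more of the 9) were picked after their values were seen.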

Additional observations from a re-analysis of the deposited data

Results flagged for a closer look

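Postn went opposite ways in fibroblasts and in smooth muscle-marked cells. The log2 ratio of AngII over Vehicle was 3.25 in fibroblasts and -0.93 in smooth muscle-marked cells, the latter on 135 UMIs in AngII and 9038 in Vehicle. Tnc did the same, with 4.64 in fibroblasts and -0.68 in smooth muscle-marked cells, on 39 and 2207 UMIs. The AngII values of both rest on 15 cells. Ndnf had a log2 ratio of 3.18 in fibroblasts and -0.44 in macrophage-marked cells, on 119 and 182 UMIs. As fold ratios with 95% counting intervals, the values outside fibroblasts were 0.526 (0.440 to 0.623) for Postn, 0.622 (0.441 to 0.853) for Tnc and 0.687 (0.541 to 0.871) for Ndnf. The difference between the cell classes was not tested, since each group was 1 library.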

How the results depend on the processing

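No paired analysis was possible because each group was 1 library. Of the 9 genes, 7 or 8 were at least 2-fold higher in AngII than in Vehicle under all 15 alternatives, and 3 to 6 were at least 2-fold lower in AngII_VWR than in AngII. Over the different choices of cells, 2.86 to 3.92% and 1.62 to 1.75% of all measured genes passed the same limits. The AngII library chose the genes, so these counts are a description. The median log2 ratio of AngII over Vehicle, 3.18, was 3.42 with a fibroblast threshold of 3% of UMIs, 2.86 with the mean of per-cell values and 2.74 with a pseudocount of 10. The median of AngII_VWR over AngII, -0.93, was -0.98 at 3%, -0.99 without doublet removal and -1.03 relative to the median of all genes. The sign of Cilp in AngII_VWR over AngII was positive in 3 of 13 settings (-0.11 to 0.03). Tnc in AngII over Vehicle ranged from 2.86 with a pseudocount of 10 to 5.99 with 5% of the profile of other cells subtracted. Fap passed 2-fold in 3 of 13.

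Depth limits shares of cells. In AngII the median share over the 9 genes, 18.8% at 2000 UMIs, was 10.6% at 1000 and 30.1% at 4000, and 23.6% with the 3% threshold. The share of AngII fibroblasts with 3 or more, 27.1%, was 12.2 and 46.9% at those depths, 25.5% with a threshold of 0.5% and 35.1% with one of 3%. With a threshold of 0.25% and no cells marked for another type, an alternative chosen after seeing the data, it was 25.4%. At 1000 and 4000 UMIs the share was 5.45 and 31.3% in AngII_VWR and 0.535 and 5.50% in Vehicle.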

Other observations

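Inflammatory genes of fibroblasts differed between the libraries as well. Their list was chosen with earlier results of these data known, so its counts are descriptions. Of 13 measured in the fibroblast class, 5 were at least 2-fold higher in AngII than in Vehicle and 2 were lower, against 3.03 and 1.79% of all measured genes. Between AngII_VWR and AngII, 7 were at least 2-fold lower in AngII_VWR and 2 higher, against 1.73 and 1.92%, with a median log2 ratio of -1.38. Il6, a cytokine gene, stood at 186 CPM in Vehicle, 628 in AngII and 86.6 in AngII_VWR, and Cxcl1, a neutrophil-attracting chemokine gene, at 747, 1180.1 and 258. AngII_VWR was thus below Vehicle for both. Of 14 inflammatory genes measured in AngII_VWR over Vehicle, 7 were at least 2-fold lower and 3 higher, against 2.31 and 3.8% of all measured genes. Of the 9 genes, which were chosen by their AngII level, 0 were at least 2-fold lower and 7 higher. Genes that tissue digestion can induce were also lower in that comparison, 5 of 16 by at least 2-fold with a median log2 ratio of -0.60, and their part in the result was not tested. Saa3, an acute-phase gene, was highest in AngII_VWR, at 216 against 57.7 in AngII and 0.382 in Vehicle.

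Schwann-marked cells, which are few, also held Postn. The 6 such cells of AngII all had it, with 80 UMIs in all, and so did 12 of 17 in AngII_VWR, with 78 UMIs. In Vehicle there was 1 such cell, with 0 UMIs.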
